A study of Mus musculus with 42 samples.

Results

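Pecam1, Cdh5, Kdr, Flt1, Tek, Tie1, Emcn, Plvap and Ehd3 are 9 genes whose transcripts are made mainly by endothelial cells in the kidney. They were taken by gene name from the count and FPKM tables of a mouse kidney RNA sequencing study, where they made up 9 of 54532 gene rows, and each name matched 1 row. FPKM is a count scaled to the exon length of the gene and the depth of the library, so that levels can be compared between genes of different length. Whole kidneys of C57BL/6 mice were sequenced in 14 groups of 3 libraries, 42 in all, with a separate mouse behind each library. The question was what loss of the transcription factor Tfeb does to kidneys that have lost Tsc2, the inhibitor of mTORC1 signalling that is mutated in tuberous sclerosis.

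The first cohort carried CaggCreERT2, a Cre recombinase driven in all tissues and switched on by tamoxifen, which was given to the nursing mothers of every group from postnatal day 1 for 3 days. Kidneys of the control, Tsc2 KO, Tfeb KO and Tsc2+Tfeb DKO (double knockout, DKO) groups were taken at day 30. Its controls are labelled wild type, and for the sequenced kidneys the study describes them as carrying CaggCreERT2 without floxed Tsc2. The second cohort used KspCre, which the cadherin 16 promoter drives in the tubular epithelium, and had the same 4 groups without drug, with Cre-negative controls, at day 50. The third cohort was also KspCre and day 50, and held control, Tsc2 KO and DKO mice given either vehicle or 1 mg/kg rapamycin, an mTORC1 inhibitor, 3 times per week from day 25 for 11 intraperitoneal injections. In the KspCre mice the endothelium itself is thus not where the Cre is driven, while CaggCreERT2 can recombine in endothelium too. The cohorts differed in Cre, age, tamoxifen, kind of control and sex make-up, and these cannot be told apart in any comparison between them. By Xist and Y-linked transcripts the 12 KspCre libraries without drug and the 18 drug libraries were all female, whereas the CaggCreERT2 cohort had 6 female and 6 male libraries, with 3 males among the controls and 1 male (replicate 2) among the Tsc2 KO.

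Blood vessels of the kidney are lined by endothelial cells of several kinds. The capillaries of the glomerulus have open pores through which plasma is filtered, and the peritubular capillaries around the tubules have pores closed by a thin diaphragm and take up what the tubules reabsorb. Podocytes and tubule cells make VEGF-A, which keeps these endothelia alive and fenestrated through the receptors Kdr and Flt1, and angiopoietins from neighbouring cells act through the receptor Tek and its relative Tie1. RNA from whole kidney does not tell fewer endothelial cells from less RNA per cell, and this holds for every difference given here.

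The 3 genes below fell in Tsc2 KO of both KspCre cohorts and rose in DKO against Tsc2 KO of the vehicle cohort, and the sequence before the start of each is shown because promoter elements lie there. Transcription factors of the ETS family, several of which drive endothelial genes, bind around the core GGAA, and capitals mark GGAA or its reverse complement TTCC. The sequences run 5′ to 3′ on the gene's strand, come from RefSeq on GRCm38.p6 and end before the first transcribed base.
Tek (chr4:94739039-94739288, plus strand): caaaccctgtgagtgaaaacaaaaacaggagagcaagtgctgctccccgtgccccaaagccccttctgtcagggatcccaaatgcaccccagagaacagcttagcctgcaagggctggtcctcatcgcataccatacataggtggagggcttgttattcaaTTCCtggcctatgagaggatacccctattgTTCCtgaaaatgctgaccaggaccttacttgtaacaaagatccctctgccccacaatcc
Kdr (chr5:75978459-75978705, minus strand): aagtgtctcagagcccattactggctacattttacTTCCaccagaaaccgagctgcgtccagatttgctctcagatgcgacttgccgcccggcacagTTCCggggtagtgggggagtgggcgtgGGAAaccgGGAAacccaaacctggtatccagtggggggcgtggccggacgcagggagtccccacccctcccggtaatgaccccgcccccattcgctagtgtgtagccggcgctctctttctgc
Emcn (chr3:137340828-137341066, plus strand): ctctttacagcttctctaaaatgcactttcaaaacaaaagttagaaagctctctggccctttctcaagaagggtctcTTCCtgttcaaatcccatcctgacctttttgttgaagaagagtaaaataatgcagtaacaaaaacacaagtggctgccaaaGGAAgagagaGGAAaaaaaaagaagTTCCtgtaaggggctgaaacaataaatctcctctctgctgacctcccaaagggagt
The core occurred 2 times before Tek, 4 times before Kdr and 4 times before Emcn, counting both strands. It is a short word, held by 93.4% of all 32851 mouse promoter windows of 250 bases with a median of 3 matches, so most genes hold it. Both matches of Tek and 2 of the 4 of Emcn were the longer CAGGAA or its reverse complement, which 25.7% of windows hold, and 1 match of Kdr was CCGGAA, held by 12% of windows. A match is a string of letters and no measured binding site. RefSeq windows were found for 6 of the 9 genes, and Flt1 had 4 matches of the core. The windows of Tie1 and Ehd3 lay mostly or wholly within the gene as the count tables place it, so no matches are given for them.

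Among the 9, Plvap, the protein of the capillary diaphragms, had the highest FPKM in 14 of 14 groups, and Flt1, the high-affinity VEGF-A receptor that also binds VEGF-B and placental growth factor, had the lowest in 14 of 14. In the CaggCreERT2 controls Plvap lay at 125, 130 and 145 FPKM, and Flt1 at 4.49, 5.71 and 4.60 FPKM. Cdh5, the VE-cadherin of endothelial junctions, was second in 7 groups, Pecam1, the adhesion molecule CD31, in 4, and Emcn, the sialomucin endomucin of capillaries and veins, in 3. Between the lowest and the highest of the 42 libraries each gene spanned 4.03-fold to 6.79-fold, and the counts behind the values ran from 268 to 6856. For 8 of the 9 genes the highest library was the same one, CaggCreERT2 Tfeb KO replicate 2, and Emcn was highest in KspCre Tfeb KO replicate 1.

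**Figure D1:**
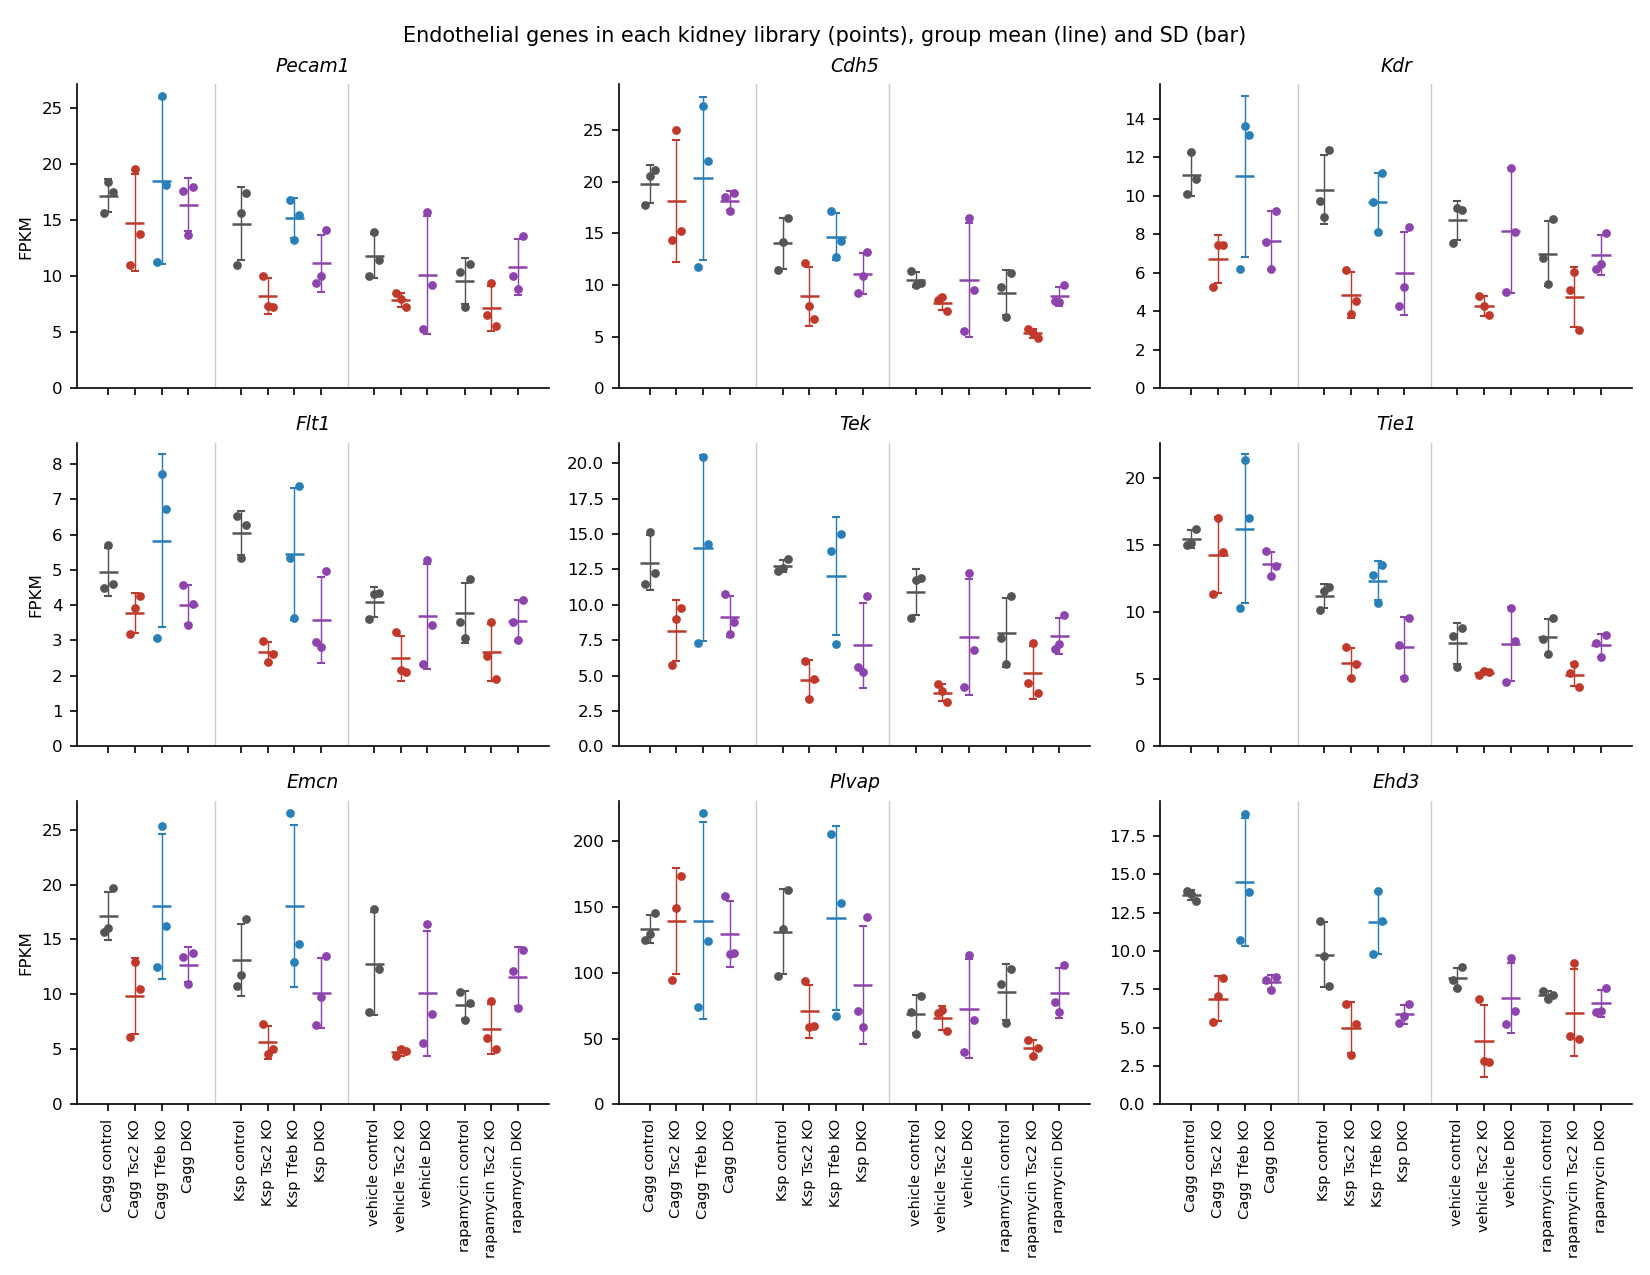
Each panel plots 1 of the 9 endothelial genes, with FPKM on the vertical axis from 0 and the 14 groups on the horizontal axis; points are single libraries, lines are group means and bars are SD, n = 3. Among groups without rapamycin, Tsc2 KO libraries lie below their controls in both KspCre cohorts, except for Cdh5 without drug and Plvap with vehicle, where they overlap. With rapamycin, Tsc2 KO and control overlap in several panels, among them Ehd3 and Tek. Plvap is on the highest scale, and CaggCreERT2 Tfeb KO replicate 2 stands above the other libraries in 8 panels.

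Tsc2 KO had the lowest mean of the 4 CaggCreERT2 groups for 6 of the 9 genes and of the 4 KspCre groups without drug for 9 of 9. In the drug cohort the lowest of the 6 groups was a Tsc2 KO group for all 9 genes, vehicle for 5 and rapamycin for 4. Tfeb KO had the highest mean for 8 genes in the CaggCreERT2 and 6 in the KspCre cohort. These orders were coarse, since neighbouring groups overlapped in 24 of 27 steps of the CaggCreERT2 order, in 25 of 27 of the KspCre order and in 40 of 45 of the drug cohort order.

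Tsc2 was lower in every Tsc2 KO group than in its control. It lay at 9.81 to 10.6 FPKM in the CaggCreERT2 controls and at 4.06 to 4.55 FPKM in the Tsc2 KO, and the corresponding ranges were 8.75 to 9.26 and 3.55 to 4.37 FPKM in the KspCre cohort and 8.59 to 9.81 and 3.80 to 4.47 FPKM with vehicle. Tsc2 was not equally low in all groups labelled as lacking it. It was higher in vehicle DKO than in vehicle Tsc2 KO, at 5.53 to 6.41 FPKM (log2 fold change 0.58, adjusted p = 8.43e-04), and higher in rapamycin than in vehicle Tsc2 KO, with means of 5.70 and 4.06 FPKM (0.49, adjusted p = 0.0020), and its part in the DKO and rapamycin results of the 9 genes was not tested. Tfeb was lower in DKO than in Tsc2 KO by 1.48 on the log2 scale in the CaggCreERT2 cohort and by 1.07 with vehicle, both passing the test, and its log2 fold change of -0.48 in the KspCre cohort without drug did not (adjusted p = 0.36). In the Tfeb KO groups Tfeb did not pass against control. It read 3.64, 3.73 and 2.73 FPKM beside 5.30, 4.57 and 8.02 FPKM with CaggCreERT2 (log2 fold change -0.80, adjusted p = 0.39) and 4.32, 4.80 and 5.25 FPKM beside 5.85, 6.05 and 6.24 FPKM with KspCre (-0.33, adjusted p = 0.63). All Tfeb KO libraries lay below all controls in both cohorts, but the KspCre Tfeb KO mean of 4.79 FPKM was no lower than that of the KspCre Tsc2 KO, 4.58 FPKM. In the CaggCreERT2 cohort the count and FPKM tables name 4 of 12 columns differently and exchange 2 libraries between Tfeb KO and DKO. Groups here follow the FPKM table, and values under the count table's names are given where they change a call of the 9 genes or of a gene named below.

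In whole-body Tsc2 KO kidneys, 1 of the 9 genes fell. Ehd3, an endocytic trafficking protein that in the kidney marks glomerular endothelium, dropped to 52.8% of the control level, and the pan-endothelial genes Pecam1, Cdh5 and Tie1 were at 89.5%, 95.6% and 96.2% of control and did not pass. A gene counted as changed when edgeR's quasi-likelihood test gave an adjusted p (Benjamini-Hochberg over all genes) of at most 0.05 and its mean reached 5 FPKM in either group. By that rule 1251 of 8090 genes (15.5%) were lower in whole-body Tsc2 KO, so 1 of 9 is near the background.

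Ehd3 read 13.9, 13.7 and 13.3 FPKM in the CaggCreERT2 controls and 5.36, 7.09 and 8.24 FPKM in the Tsc2 KO. All 3 knockout libraries lay well under all 3 controls. The log2 fold change was -0.92 with a standard error of 0.18 and an adjusted p of 0.0026 (edgeR quasi-likelihood), and it remained called when any 1 library was left out. When libraries were named as in the count table the log2 fold change was again -0.92, now with an adjusted p of 0.053. The controls were all male, and the 1 male Tsc2 KO library had 7.09 FPKM of Ehd3, below every control; with sex as a covariate the log2 fold change was -0.93 and the adjusted p 0.018.

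Kdr, the main signalling receptor for VEGF-A, read 10.1, 12.3 and 10.9 FPKM in controls and 5.25, 7.43 and 7.43 FPKM in whole-body Tsc2 KO. Emcn read 15.7, 16.1 and 19.7 FPKM in controls and 6.15, 13.0 and 10.5 FPKM in the Tsc2 KO. Tek, the angiopoietin receptor Tie2, read 11.5, 15.2 and 12.2 FPKM against 5.72, 8.99 and 9.80 FPKM. The groups of these 3 genes did not overlap, yet none passed: the differences were -0.67 for Kdr (adjusted p = 0.066), -0.74 for Emcn (0.054) and -0.61 for Tek (0.14). DESeq2 called 3 of the 9 genes lower, with 16.5% of all genes, the fit without a filter on low counts called 4, with 15.5%, and the fit with the libraries named as in the count table called 0.

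Plvap in whole-body Tsc2 KO read 94.7, 149 and 174 FPKM around control values of 125, 130 and 145 FPKM, a log2 fold change of 0.12 (95% interval -0.57 to 0.81). Pecam1 differed by -0.16 (-0.72 to 0.41), Cdh5 by -0.06 (-0.63 to 0.50) and the orphan receptor Tie1, which modulates Tek, by -0.06 (-0.51 to 0.40). For these 4 genes the knockout libraries lay on both sides of the controls or among them, and no difference in them was detectable with 3 mice per group. Flt1, at a mean of 4.93 FPKM in controls, stayed under 5 FPKM in both groups and could not be called (log2 fold change -0.32, adjusted p = 0.38).

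In the tubule-specific model without drug, 7 of the 9 genes fell in Tsc2 KO kidneys: Tek, Emcn, Flt1, Kdr, Ehd3, Tie1 and Pecam1, to between 37.0% and 55.8% of the control level. Plvap and Cdh5 were at 53.8% and 63.3% of control and did not pass. By the same rule 676 of 7736 genes (8.74%) were lower in this comparison. Tek, Flt1, Kdr and Ehd3 had Tsc2 KO means of 4.719, 2.665, 4.847 and 4.996 FPKM. These genes therefore reached the minimum of 5 FPKM through the controls only. The median log2 fold change of the 9 genes was -0.97 beside -0.01 over all genes tested, whereas in the whole-body model it was -0.32 beside 0.06.

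Tek dropped most, from 12.4, 12.6 and 13.2 FPKM in KspCre controls (12.7 ± 0.426 FPKM, SD, n = 3) to 6.03, 3.34 and 4.79 FPKM in Tsc2 KO (4.72 ± 1.35). The difference on the log2 scale was -1.44 with a standard error of 0.33 and an adjusted p of 0.013. Tie1, its partner, read 10.2, 11.6 and 11.9 FPKM in controls and 7.38, 5.08 and 6.16 FPKM in Tsc2 KO, a log2 fold change of -0.86 (adjusted p = 0.020). For both Tie receptors every knockout library lay below every control.

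Of the VEGF receptors, Kdr read 9.74, 8.89 and 12.4 FPKM in KspCre controls and 6.16, 3.84 and 4.54 FPKM in Tsc2 KO, a log2 fold change of -1.09 (adjusted p = 0.015). Flt1 read 6.52, 5.35 and 6.26 FPKM against 2.99, 2.39 and 2.62 FPKM, a log2 fold change of -1.18 (adjusted p = 0.012). Neither receptor overlapped between the groups, and replicate 1 was the highest of the Tsc2 KO libraries for both.

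Emcn read 10.8, 11.8 and 16.8 FPKM in controls and 7.33, 4.55 and 5.08 FPKM in KspCre Tsc2 KO, a log2 fold change of -1.22 (adjusted p = 0.026). Pecam1 read 11.0, 15.7 and 17.4 FPKM against 10.1, 7.32 and 7.29 FPKM, a log2 fold change of -0.84 (adjusted p = 0.022). Ehd3 read 11.9, 9.65 and 7.70 FPKM against 6.53, 3.24 and 5.22 FPKM, a log2 fold change of -0.97 (adjusted p = 0.020). The groups were apart for all 3 genes, by a wide margin for Emcn and narrowly for Pecam1, where control replicate 1 and Tsc2 KO replicate 1 differed by less than the spread of the controls.

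Plvap and Cdh5 were the exceptions. Plvap read 97.8, 133 and 163 FPKM in KspCre controls and 94.0, 58.7 and 59.6 FPKM in Tsc2 KO, which do not overlap but vary too much for the test (log2 fold change -0.90, adjusted p = 0.19). Cdh5 read 11.4, 14.2 and 16.4 FPKM in controls and 12.1, 7.91 and 6.68 FPKM in Tsc2 KO, the only one of the 9 with overlapping groups (log2 fold change -0.66, adjusted p = 0.080). Tsc2 KO replicate 1 was the highest knockout library for all 9 genes.

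These calls changed when single libraries were left out. Without KspCre Tsc2 KO replicate 2, 0 of the 9 genes passed, with 2 passing without Tsc2 KO replicate 3, 3 without control replicate 2 or control replicate 3, and 8 without Tsc2 KO replicate 1. The share of all genes called in these fits is not given, so a loss of calls common to all genes cannot be told apart. The adjusted p of Tek without Tsc2 KO replicate 2 was 0.056 and its log2 fold change never rose above -1.24 in any alternative fit, so the size of the difference held while the call did not.

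The vehicle-treated KspCre mice are a separate set of animals with the same comparison, and 4 of the 9 genes fell in Tsc2 KO there: Tek, Emcn, Kdr and Ehd3, to 34.8%, 37.2%, 49.2% and 50.5% of control. Their Tsc2 KO means were 3.797, 4.757, 4.291 and 4.155 FPKM, so each reached the minimum of 5 FPKM through the controls only. The background was higher, since 1995 of 8098 genes (24.6%) were lower, and the median of the 9 was -0.71 on the log2 scale beside 0.00 over all genes tested. Pecam1, Cdh5, Tie1 and Plvap did not pass, and Flt1 again stayed under 5 FPKM in both groups.

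Tek read 9.07, 11.8 and 11.9 FPKM with vehicle in controls and 4.37, 3.90 and 3.13 FPKM in Tsc2 KO, a log2 fold change of -1.52 (adjusted p = 0.0018). Kdr read 7.53, 9.39 and 9.24 FPKM against 4.81, 4.28 and 3.78 FPKM, a log2 fold change of -1.02 (adjusted p = 0.0075). The groups were far apart for both receptors, with no overlap. Emcn read 8.39, 17.7 and 12.3 FPKM against 4.38, 5.04 and 4.86 FPKM, a log2 fold change of -1.43 (adjusted p = 0.0038), with controls that spread widely and knockout libraries close together.

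Ehd3 with vehicle read 8.11, 7.60 and 8.93 FPKM in controls and 6.86, 2.82 and 2.79 FPKM in Tsc2 KO, a log2 fold change of -0.98 (adjusted p = 0.028). Its fall was uneven, with Tsc2 KO replicate 1 just under the controls, and its adjusted p reached 0.13 without Tsc2 KO replicate 2. The count over the 9 genes stayed between 3 and 5 whichever library was left out. Replicates 1 and 2 of the vehicle Tsc2 KO also held transcripts of the adrenal gland, which lies on the kidney. Without the 4 vehicle libraries that held them (these and DKO replicates 1 and 2) the count was again 4, with the 1 remaining Tsc2 KO library assumed to vary like the other groups.

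Flt1 with vehicle had a log2 fold change of -0.71 (adjusted p = 0.051), Pecam1 of -0.58 (0.14), Tie1 of -0.48 (0.097) and Cdh5 of -0.34 (0.33). For each of these 4 genes all Tsc2 KO libraries nevertheless lay below all controls. Plvap read 70.6, 53.4 and 82.4 FPKM in controls and 69.8, 71.8 and 55.5 FPKM in Tsc2 KO, a log2 fold change of -0.06 (95% interval -0.68 to 0.55), and its groups overlapped. In all, the knockout libraries were below every control for 5 of the 9 genes in the CaggCreERT2 cohort (25.4% of all genes that reached 5 FPKM), 8 of 9 in the KspCre cohort (20.7%) and 8 of 9 with vehicle (28.2%), counting Flt1, which was under 5 FPKM in the first and the last.

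**Figure D2:**
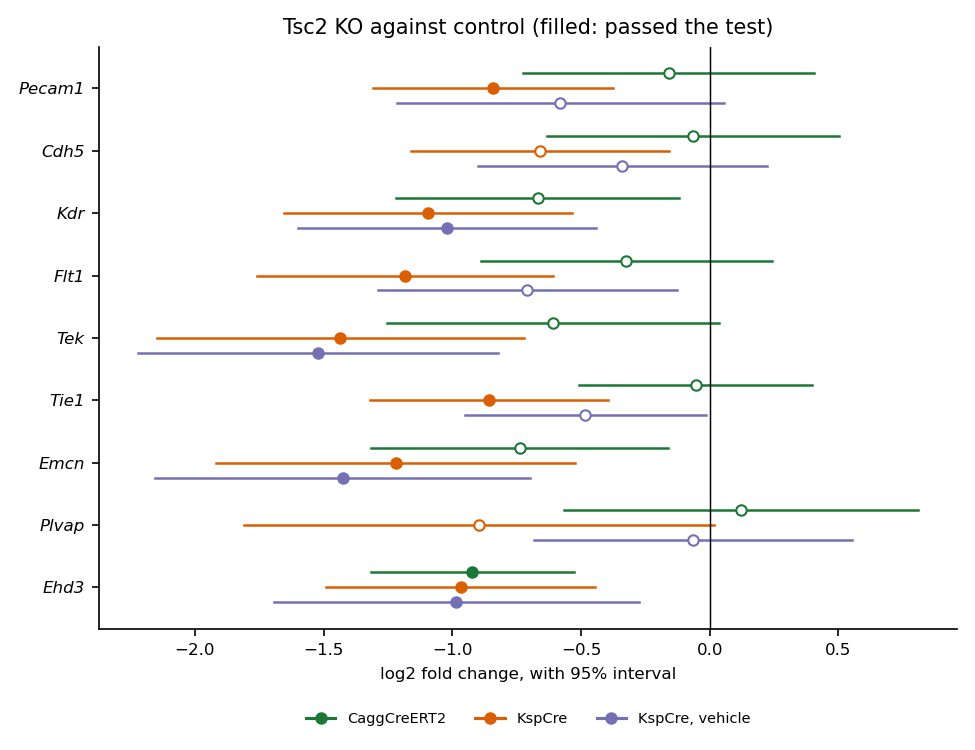
The log2 fold change of each of the 9 genes in Tsc2 KO against control (horizontal axis) is drawn for the CaggCreERT2, KspCre and vehicle cohorts, with lines for the 95% interval and filled points for genes that passed the test. Ehd3 is near -0.9 in each cohort, 7 points are filled for KspCre and 4 for vehicle, and Plvap lies at 0.12, -0.90 and -0.06.

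The whole-body and the tubule-specific Cre models were compared directly, as the difference between their Tsc2 KO effects in 1 edgeR quasi-likelihood fit. The difference was above 0 for all 9 genes, meaning a smaller fall in the whole-body model or none. Of all genes that reached 5 FPKM, 42.8% (against KspCre without drug) and 41.1% (against vehicle) were below 0. The 9 genes also followed each other, with a median r of 0.809 between pairs, so their signs are not separate observations. By the test 0 of 9 passed against either KspCre cohort, where 2.11% of genes differed (KspCre without drug) and 5.93% differed (vehicle). For Ehd3 the difference was smallest, 0.04 on the log2 scale with a 95% interval of -0.58 to 0.67 against KspCre, and 0.05 (-0.79 to 0.90) against vehicle. The 2 comparisons share the CaggCreERT2 libraries.

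Flt1 and Tie1 came closest to a difference between the models. For Flt1 it was 0.86 (0.29 to 1.43, unadjusted p = 0.0059, adjusted p = 0.13), for Tie1 0.80 (0.24 to 1.36, unadjusted p = 0.0084, adjusted p = 0.15). Against vehicle the same 2 genes differed by 0.38 and 0.42. At an unadjusted p under 0.05 there were 5 of the 9 genes against KspCre without drug (also Plvap, Tek and Pecam1) and 1 against vehicle (Tek, 0.91, 0.04 to 1.78), where 17.6% and 24.9% of all genes had such a p. DESeq2 called Flt1 in the former (adjusted p = 0.048), with 5.92% of all genes, and 0 in the latter, with 12.2%.

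**Figure D3:**
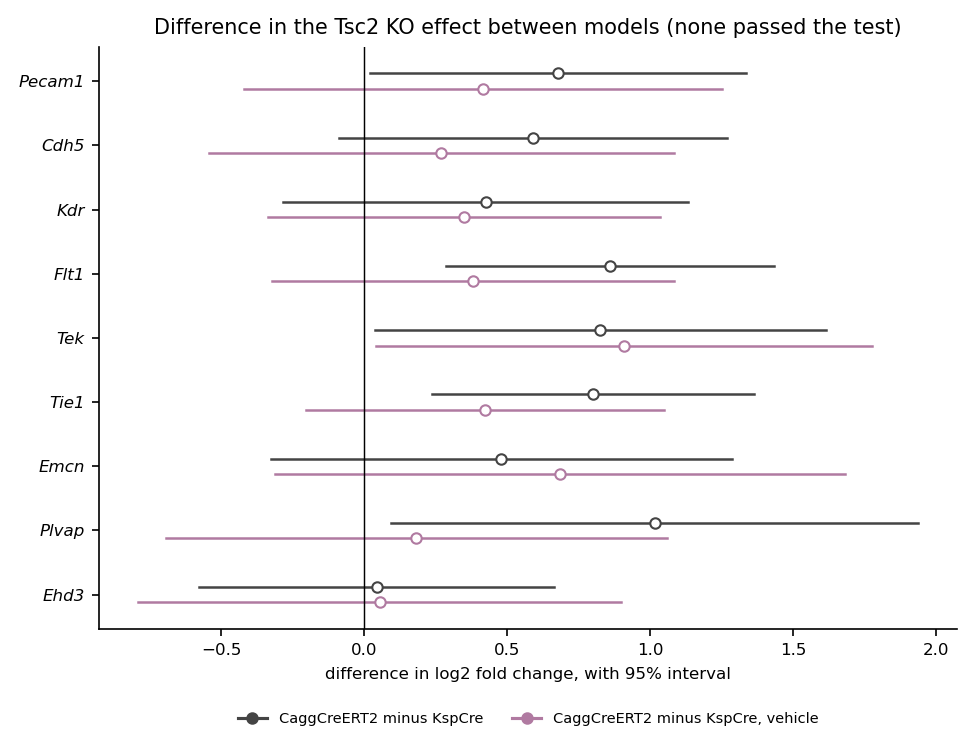
For each of the 9 genes the difference in log2 fold change between the CaggCreERT2 and a KspCre cohort is plotted with its 95% interval, where values above 0 mean a smaller fall, or none, in the whole-body model. All 9 points lie above 0 in both comparisons, none passed the test, and Ehd3 lies at 0.04 and 0.05.

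Ehd3 marks glomerular endothelium and Plvap the capillary diaphragms, while Emcn, of capillaries and veins, marks no single vessel bed. Their ratio to Pecam1 was followed within each library. The Ehd3 to Pecam1 ratio was lower in whole-body Tsc2 KO by 0.75 on the log2 scale with no overlap between the groups, and the differences were -0.17 in KspCre and -0.54 with vehicle, where groups overlapped. Without 1 library the KspCre difference ran from -0.47 to 0.18 and was above 0 without control replicate 1 (0.18) or Tsc2 KO replicate 2 (0.03), and the vehicle difference was -0.92 without Tsc2 KO replicate 1 and -0.33 without replicate 2. Emcn was lower relative to Pecam1 in all 3 cohorts without overlap, at -0.60, -0.39 and -0.79. For Plvap the ratio differed by 0.28, -0.07 and 0.52, without overlap only with vehicle, where it was 0.22 without control replicate 2. An exact two-sided permutation test of 3 against 3 libraries cannot go below p = 0.1, and each ratio without overlap had that value.

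Loss of Tfeb together with Tsc2 was followed next, as DKO against Tsc2 KO. In the vehicle cohort 3 of the 9 genes rose, Emcn to 211%, Tek to 203% and Kdr to 190% of the Tsc2 KO level, where 1345 of 7950 genes (16.9%) were higher. All 3 had Tsc2 KO means under 5 FPKM and reached that minimum through the DKO only. In the CaggCreERT2 cohort 0 of 9 rose (6.91% of genes higher) and in KspCre mice without drug 0 of 9 rose (0.117% higher, only 9 genes in all). The fold changes were above 0 for all 9 genes in both KspCre cohorts and for 6 of 9 in the CaggCreERT2 cohort. Of all genes that reached 5 FPKM, 56.9% (KspCre without drug), 47.8% (vehicle) and 55.1% (CaggCreERT2) were below 0.

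Kdr read 4.98, 11.5 and 8.12 FPKM in vehicle DKO against 4.81, 4.28 and 3.78 FPKM in Tsc2 KO, a log2 fold change of 0.93 (adjusted p = 0.022). Emcn read 5.57, 16.4 and 8.26 FPKM against 4.38, 5.04 and 4.86 FPKM (1.08, adjusted p = 0.033). Tek read 4.17, 12.2 and 6.81 FPKM against 4.37, 3.90 and 3.13 FPKM (1.02, adjusted p = 0.034). DKO replicate 2 was the highest for all 3 genes and replicate 1 was close to the Tsc2 KO, so the groups were just apart for Kdr and Emcn and overlapped for Tek. All DKO libraries lay above all Tsc2 KO libraries for 2 of the 9 genes and for 24.6% of all genes.

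These 3 calls changed when single libraries were left out. Leaving out DKO replicate 2, Tsc2 KO replicate 2 or Tsc2 KO replicate 3 gave 0 called genes, leaving out DKO replicate 3 gave 1, Tsc2 KO replicate 1 gave 2 and DKO replicate 1 gave 5. The share of all genes called in these fits is not given, so a loss of calls common to all genes cannot be told apart. Over alternative fits log2 fold changes ran from 0.60 to 1.18 for Kdr, 0.53 to 1.36 for Emcn and 0.53 to 1.31 for Tek. Without the libraries with adrenal transcripts 1 library is left in each of the groups. The log2 fold changes were then 1.11 for Kdr, 0.77 for Emcn and 1.13 for Tek, and whether the calls hold cannot be judged. The summed level of 4 adrenal genes was 189, 2623 and 1.1 FPKM in the DKO libraries and 914, 30.9 and 0.7 FPKM in the Tsc2 KO libraries. Other markers moved too, with a sum of 5 erythroid genes at 364 to 2153 FPKM in DKO and 14.3 to 87.0 FPKM in Tsc2 KO, of 8 podocyte genes at 89.0 to 136.5 and 47.0 to 55.9 FPKM, of 8 macrophage genes at 221 to 411 and 314 to 722 FPKM, and of 8 proximal tubule genes at 1471 to 2494 and 574 to 930 FPKM. A sum of 6 distal tubule and collecting duct genes was at 2771 to 3104 FPKM in DKO and 1178 to 2127 FPKM in Tsc2 KO, of 4 adipose genes at 54.9 to 130.0 and 6.35 to 31.5 FPKM, and of 4 proliferation genes at 2.28 to 2.90 and 6.54 to 20.8 FPKM. The part of any of these in the result was not tested.

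Without drug, KspCre DKO libraries were far apart. Replicate 3 had a summed level of the 9 genes of 223 FPKM, beside 123 and 113 FPKM in replicates 1 and 2, and of the erythroid genes of 623 FPKM, beside 74.4 and 180 FPKM. The macrophage sum of the group ran from 263 to 2337 FPKM, and the part of either in the results was not tested. Emcn read 7.19, 9.80 and 13.5 FPKM in DKO against 7.33, 4.55 and 5.08 FPKM in Tsc2 KO, a log2 fold change of 0.85 (adjusted p = 0.29), and it alone, 1 of 9, had an unadjusted p under 0.05, where 13.8% of all genes did. DESeq2 also called 0 of 9 (4.07% of all genes). In the CaggCreERT2 cohort the largest value was again that of Emcn, 0.34 (-0.23 to 0.92), and 0 of 9 had an unadjusted p under 0.05 (33.8% of all genes) or a call from DESeq2 (19.7%).

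**Figure D4:**
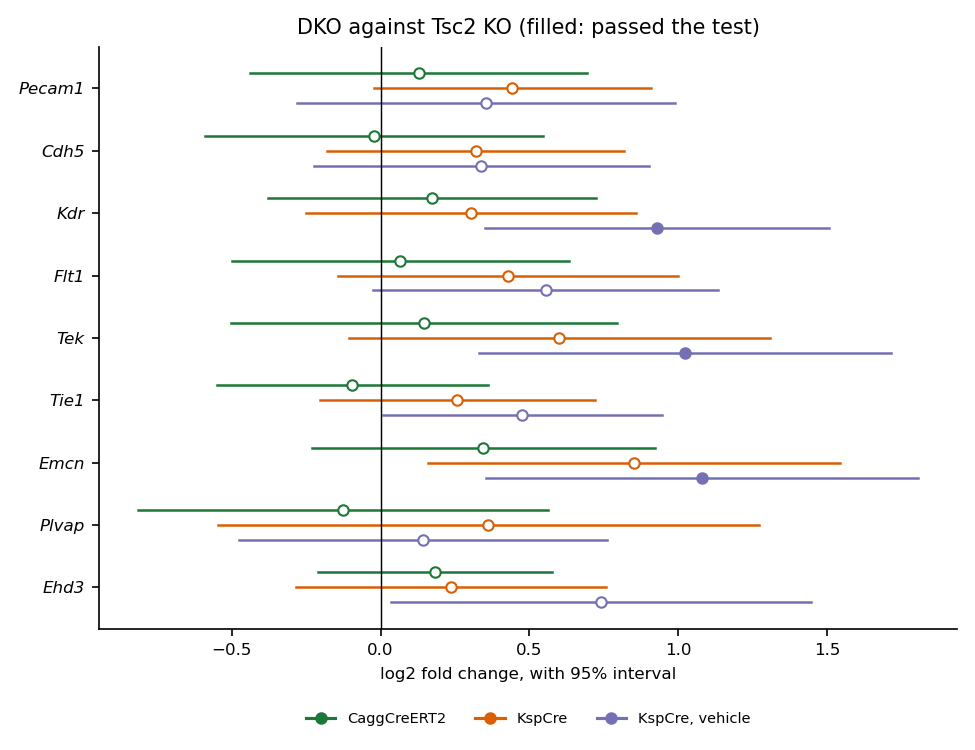
The log2 fold change of each of the 9 genes in DKO against Tsc2 KO (horizontal axis) is drawn for the CaggCreERT2, KspCre and vehicle cohorts, with 95% intervals as lines and filled points for genes that passed. The 3 filled points are Kdr, Tek and Emcn with vehicle, at 0.93, 1.02 and 1.08.

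Against control, DKO kidneys were still low for Ehd3 in the whole-body model, at 8.09, 7.44 and 8.32 FPKM beside 13.9, 13.7 and 13.3 FPKM in controls, a log2 fold change of -0.74 (adjusted p = 0.021). It was the 1 called gene of 9, where 376 of 7950 genes (4.73%) were lower. All DKO libraries lay below all controls for 5 of the 9 (Kdr, Emcn, Tek, Tie1 and Ehd3) and for 22.9% of all genes. The summed podocyte genes were also lower, at 137 to 142 FPKM in DKO and 207 to 229 FPKM in controls, with 5 of 8 called lower, and their part in the Ehd3 result was not tested. The call of Ehd3 was lost when any 1 control or DKO library was left out, and with the libraries named as in the count table the log2 fold change was -0.42 (adjusted p = 0.67). In the KspCre cohort without drug 0 of 9 passed (1.56% lower) although Kdr, Flt1, Tek, Tie1 and Ehd3 had every DKO library below every control (17.4% of all genes did), with log2 fold changes of -0.60 to -0.84 and unadjusted p of 0.0093 to 0.024 (23.3% of all genes had a p under 0.05), and DESeq2 called Ehd3 and Kdr (4.45% of all genes lower). With vehicle 0 of 9 passed (3.05% lower), none had an unadjusted p under 0.05 (29.1% of all genes), DESeq2 called 0 (14.4%), and Kdr, at -0.09 (-0.66 to 0.48), was close to control.

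The difference between the models in the DKO effect was below 0 for all 9 genes against both KspCre cohorts, with medians of -0.37 and -0.55 on the log2 scale. Of all genes that reached 5 FPKM, 53.1% (against KspCre without drug) and 57.9% (against vehicle) were below 0. It uses the same Tsc2 KO libraries as the difference in the Tsc2 KO effect, with the opposite sign, so the results are not independent. By edgeR and by DESeq2, 0 of 9 passed in either comparison, where 0.417% and 0.718% of all genes did by edgeR and 3.36% and 4.58% by DESeq2. At an unadjusted p under 0.05 there were 0 against KspCre without drug and 2, Kdr and Tek, against vehicle, where 17.9% and 16.9% of all genes had such a p.

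In the groups labelled Tfeb KO no difference in the 9 genes was detectable, while Tfeb itself was at 57.3% of control with CaggCreERT2 and at 79.4% with KspCre and did not pass. The CaggCreERT2 Tfeb KO libraries were all female and their controls all male, so sex cannot be told apart from genotype there. In Tfeb KO against control 0 of 9 passed in the CaggCreERT2 cohort (0.0256% of genes in either direction) and 0 of 9 in the KspCre cohort (0% of genes), none had an unadjusted p under 0.05 (7.78% and 11.2% of all genes), and DESeq2 called none (0.691% and 0.107%). The log2 fold changes ran from 0.02 to 0.27 in the former and from -0.14 to 0.46 in the latter. The CaggCreERT2 Tfeb KO libraries were far apart, with Plvap at 73.9, 221 and 124 FPKM and Pecam1 at 11.3, 26.1 and 18.1 FPKM, and replicates 1 and 2, at either end, both held adrenal transcripts (144 and 19.4 FPKM summed).

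Rapamycin, which lowers mTORC1 activity, changed 0 of the 9 genes in Tsc2 KO kidneys, where it changed 3078 of 7997 genes (38.5%) in either direction. DESeq2 also called 0 (41.4% of all genes), and Cdh5 alone, 1 of 9, had an unadjusted p under 0.05, where 48.9% of all genes did. Cdh5 read 8.52, 8.80 and 7.51 FPKM with vehicle and 5.72, 5.34 and 4.82 FPKM with rapamycin, a log2 fold change of -0.64 (adjusted p = 0.085). Plvap read 69.8, 71.8 and 55.5 FPKM with vehicle and 48.6, 37.0 and 42.7 FPKM with rapamycin, -0.62 (adjusted p = 0.13). In both genes all rapamycin libraries lay below all vehicle libraries, which is 2 of 9 where 23% of all genes did so. Proximal tubule genes summed to 573.7 to 930.4 FPKM with vehicle and 2437 to 2624 FPKM with rapamycin. Distal tubule and collecting duct genes went from 1178 to 2127 to 2274 to 2895 FPKM, and proliferation genes from 6.543 to 20.84 to 1.443 to 1.536 FPKM. Podocyte, macrophage, mural cell and erythroid sums overlapped. The part of these in the result was not tested.

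Emcn, Ehd3 and Tek went the other way in rapamycin-treated Tsc2 KO, with log2 fold changes of 0.52, 0.53 and 0.45 that did not pass. Tsc2 KO replicate 2 was the highest rapamycin library for all 3, with Ehd3 at 9.24 FPKM beside 4.46 and 4.25 FPKM. Rapamycin passed for 0 of 9 genes in controls (0.0664% of all genes) and 0 of 9 in DKO (7.43%), with no unadjusted p under 0.05 (14.5% and 25% of all genes) and no DESeq2 call (0.611% and 12.2%) in either.

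The ligands of these receptors were followed in the same libraries. Vegfa, which podocytes and tubule cells make, fell in Tsc2 KO in every cohort: from 47.8 to 58.4 FPKM in controls to 25.8 to 31.5 FPKM with CaggCreERT2 (log2 fold change -0.77, adjusted p = 0.0029), from 39.3 to 49.5 FPKM to 31.1 to 32.9 FPKM with KspCre (-0.48, adjusted p = 0.027), and from 35.9 to 45.1 FPKM to 28.1 to 32.2 FPKM with vehicle (-0.46, adjusted p = 0.0020). The groups did not overlap in any of the 3. The calls with CaggCreERT2 and vehicle held in every alternative fit, whereas with KspCre the adjusted p rose to as much as 0.11 without 1 library, and 5 of the 6 libraries were each needed for the call. Rapamycin raised Vegfa in Tsc2 KO by 0.35 (adjusted p = 0.017), where none of its receptors rose, but 6 of 14 alternative fits lost this call (adjusted p up to 0.13), among them those without vehicle Tsc2 KO replicate 2 or 3 or rapamycin replicate 1. Vegfb, a ligand of Flt1, rose with vehicle by 0.66 (adjusted p = 8.70e-05), was at 0.34 and 0.35 without passing in the other cohorts, was still higher in vehicle DKO than in control by 0.45 (adjusted p = 0.017, a call lost in 5 of 14 alternative fits), and fell with rapamycin in Tsc2 KO by 0.72 (adjusted p = 7.16e-05) and in DKO by 0.40 (0.032). The rapamycin call in DKO was lost in 8 of 14 alternative fits (adjusted p up to 0.26), among them those without any 1 rapamycin DKO library, without vehicle DKO replicate 1 or 3 and without the libraries with adrenal transcripts, whereas the calls in Tsc2 KO held in all 14.

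Angpt2, the context-dependent ligand of Tek that endothelial cells store and release, also fell in all 3 cohorts. It lay at 7.39 to 7.77 FPKM in CaggCreERT2 controls and at 2.95 to 5.40 FPKM in Tsc2 KO (-0.84, adjusted p = 0.014), and rose in DKO against Tsc2 KO by 1.33 (adjusted p = 0.0043). In KspCre controls it read 2.74, 10.3 and 10.5 FPKM and in Tsc2 KO 1.48, 1.32 and 0.997 FPKM (-2.64, adjusted p = 0.038), and with vehicle the log2 fold change was -1.63 (adjusted p = 0.0021). The vehicle call was lost without the libraries with adrenal transcripts (-1.44, adjusted p = 0.082). Angpt2 also no longer passed with sex as a covariate in the CaggCreERT2 cohort (adjusted p = 0.091), nor in KspCre with the replicate block (adjusted p of up to 0.12 over the alternatives) or when any 1 of 5 of the 6 libraries was left out (all but control replicate 1). In DKO it rose with rapamycin by 1.74 (adjusted p = 0.011), a call lost without rapamycin DKO replicate 2 and without the libraries with adrenal transcripts (adjusted p = 0.23). Angpt1, the activating ligand of Tek, fell with vehicle (-1.04, adjusted p = 3.23e-04) and was at -0.12 and -0.26 without passing in the other cohorts. With rapamycin it was at 0.93 in Tsc2 KO (adjusted p = 0.0012), not called because both means, 4.78 and 2.51 FPKM, were under the minimum of 5, and at -0.91 in controls (adjusted p = 0.22). Pgf stayed below 1 FPKM in the mean and was not called.

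**Figure D5:**
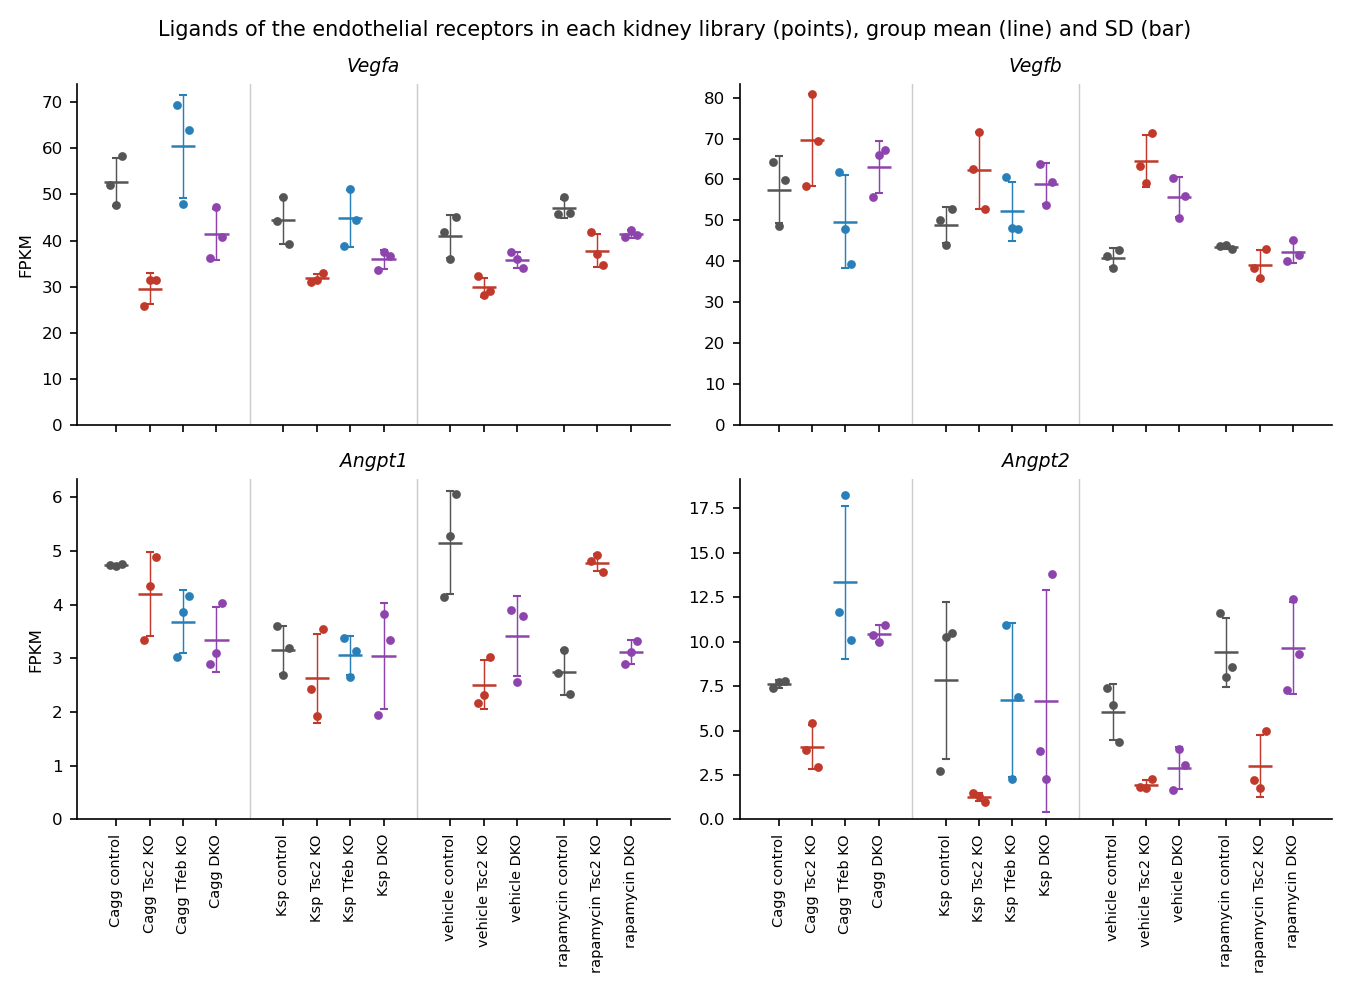
Panels plot Vegfa, Vegfb, Angpt1 and Angpt2 in FPKM (vertical axis from 0) for the 14 groups, with points for libraries, lines for means and bars for SD, n = 3. Vegfa and Angpt2 are lower in Tsc2 KO than in control in each cohort, and Vegfb is highest in the Tsc2 KO without rapamycin in each cohort, while the rapamycin Tsc2 KO has the lowest mean of the 14 groups, 39.1 FPKM.

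Further endothelial genes were counted from lists set out together with the 9. Of 24 general endothelial genes, 1 was lower in whole-body Tsc2 KO (Arhgef15, -0.68), 7 were lower and 1 higher in KspCre Tsc2 KO, and 3 were lower and 1 higher with vehicle. Over all genes that reached 5 FPKM, 15.5%, 8.74% and 24.6% were lower and 23%, 9.42% and 23.8% higher in these comparisons. The 24 also hold genes that never reached it, such as Vwf (highest 1.495 FPKM) and Cyyr1 (2.031 FPKM). The 7 of 24 lower with KspCre was above its share all the same, and the other counts are not ranked against theirs. Esam, a junctional adhesion molecule, was at -1.41 with KspCre and -0.95 with vehicle, Erg, an endothelial ETS factor, at -1.16, and Icam2 at -1.06, both with KspCre, and Adgrl4 and S1pr1 at -1.31 and -1.17 with vehicle. The 1 higher gene was Adgrf5, at 1.16 with KspCre and 2.06 with vehicle, which fell in DKO by 1.63 and with rapamycin by 1.17. Adgrf5 is also made by acid-secreting intercalated cells of the collecting duct. Mmrn2, an endothelial matrix protein, was the 1 of 24 genes of the list that rose in vehicle DKO (0.80), where 16.9% of all genes did.

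Counts lower in Tsc2 KO with CaggCreERT2, KspCre and vehicle were 1, 1 and 2 of 4 further glomerular endothelial genes, 2, 2 and 2 of 8 VEGF ligands and coreceptors, 1, 2 and 3 of 4 genes of the angiopoietin and Tie axis, 3, 2 and 1 of 13 Notch and arterial genes, and 0, 0 and 2 of 4 venous and apelin genes. The shares over all genes given above hold for genes that reached 5 FPKM. These lists also hold genes that never did, such as Pgf (highest 1.094 FPKM) and Bmx (0.7831 FPKM). With lists this short, the counts are therefore not ranked against those shares. Higher were 1 VEGF gene with vehicle (Vegfb), 1 Notch and arterial gene with CaggCreERT2 (Unc5b) and 1 gene of endothelial activation in each cohort. Of 4 lymphatic genes tested, Pdpn, which podocytes also make, was at -0.67 with CaggCreERT2, a call lost in 9 of 15 alternative fits (among them each fit without 1 library, and -0.48 with sex as a covariate), and at 0.75 with vehicle, a call lost without the libraries with adrenal transcripts (0.38, adjusted p = 0.41). Plat, tissue plasminogen activator, was at -1.05 with KspCre and -1.75 with vehicle, and Mapt was at -0.74 with CaggCreERT2 and -1.29 with vehicle. Mapt was higher in DKO than in Tsc2 KO by 0.62 with CaggCreERT2 and by 1.12 with vehicle, and with rapamycin by 1.13. Ptprb, the phosphatase that keeps Tek inactive, was at -1.12 and -1.04 in the KspCre cohorts, and the VEGF coreceptor Nrp1 at -0.67 and -0.68. Of the Notch and arterial list, Jag1 was at -0.51, -0.57 and -0.51 in the 3 cohorts, and Efnb2, the arterial ephrin, at -0.55 with CaggCreERT2 and -0.70 with KspCre. The called activation genes were higher: Icam1 went from a mean of 4.09 to 11.1 FPKM with CaggCreERT2 and from 2.61 to 7.10 FPKM with vehicle, and Vcam1 was at 1.81 with KspCre, both of which tubule cells can also make. The venous factor Nr2f2 was at -0.65 with vehicle, 0.45 in DKO against Tsc2 KO and 0.63 with rapamycin. Apart from the values given for alternative fits, each value named in this and the preceding paragraph passed the test. Of 813 alternative fits of the 58 called values of ligands and list genes, 626 passed too.

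Many of these calls depended on how the libraries were chosen. In the CaggCreERT2 Tsc2 KO the calls of Arhgef15 (adjusted p = 0.14), Jag1 (0.075), Efnb2 (0.076), Unc5b (0.083), Icam1 (0.051), Vegfd (0.12) and Pdpn (0.090) were lost with the libraries named as in the count table. All kept their direction in every alternative fit. Log2 fold changes ran from -0.55 to -0.46 for Jag1 and 1.38 to 1.66 for Icam1. Efnb2 (-0.69 to -0.39) and Unc5b (0.45 to 0.90) varied more. With sex as a covariate the same comparison lost Arhgef15 (adjusted p = 0.11), Efnb2 (0.19), Vegfd (0.10), the Notch target Hes1 (0.12) and Pdpn (0.27). Dropping the libraries with adrenal transcripts leaves 1 vehicle Tsc2 KO and 1 vehicle DKO library. There the vehicle Tsc2 KO calls of Esam, Plat, Nrp1, Ptprb and Jag1 were lost. The same setting ended the calls of Mmrn2, Mapt, Nr2f2 and Adgrf5 in vehicle DKO, and of Mapt and Nr2f2 with rapamycin. Each kept its direction there, and with 1 library in a group a lost call does not show a smaller difference. Mapt in CaggCreERT2 DKO was lost with only the groups compared (0.0504).

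Single libraries also decided some calls. Vcam1 was lost without any 1 of the 6 KspCre libraries compared and passed in 6 of 13 alternative fits. Mmrn2 in vehicle DKO passed in 5 of 14 and was lost without any 1 Tsc2 KO library or DKO replicate 2 or 3. Arhgef15 and Unc5b each passed in 7 of 15 and were lost without any 1 CaggCreERT2 control or Tsc2 KO replicate 1 or 2. Efnb2 was lost without CaggCreERT2 control replicate 1 or 3 or Tsc2 KO replicate 1, and without KspCre control or Tsc2 KO replicate 2 or 3, and Icam2 without those same 4 KspCre libraries. Jag1 was lost without KspCre control replicate 2 or 3 or Tsc2 KO replicate 1 or 2, and without any 1 vehicle control or vehicle Tsc2 KO replicate 1 or 3. With vehicle, S1pr1 was lost without control replicate 2 or Tsc2 KO replicate 2 or 3, Nrp1 without control replicate 2 or Tsc2 KO replicate 1, Ptprb without control replicate 2 and Esam without control replicate 1. Adgrf5 with KspCre was lost without control replicate 1 or 2.

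Markers of other kidney cells moved in the same comparisons. The summed level of 8 podocyte genes was 207 to 229 FPKM in CaggCreERT2 controls and 69.8 to 98.1 FPKM in Tsc2 KO, 135 to 159 and 54.3 to 68.1 FPKM with KspCre, and 125 to 157 and 47.0 to 55.9 FPKM with vehicle, with 6, 5 and 4 of the 8 called lower beside 15.5%, 8.74% and 24.6% of all genes. Of 8 macrophage genes 4, 1 and 6 were higher (23%, 9.42% and 23.8% of all genes) and 0, 0 and 1 lower, of 8 mural cell genes 2, 1 and 0 were higher and 1, 1 and 2 lower, of 8 proximal tubule genes 7, 4 and 6 were lower, and of 6 distal tubule and collecting duct genes 4, 3 and 3 were lower and 0, 0 and 1 higher. The summed mural cell genes overlapped with CaggCreERT2 and lay at 93.8 to 145 FPKM in controls and 54.2 to 69.6 FPKM in Tsc2 KO with KspCre, and at 125 to 193 and 56.3 to 85.9 FPKM with vehicle. The sum of 4 proliferation genes overlapped with CaggCreERT2, at 13.59 to 17.85 FPKM in controls and 12.93 to 29.42 FPKM in Tsc2 KO. It was 0.69 to 2.21 and 10.1 to 14.1 FPKM with KspCre and 0.61 to 1.17 and 6.54 to 20.8 FPKM with vehicle. Of the 4 genes 2, 0 and 1 were called higher, where a call also needs a mean of 5 FPKM. Erythroid transcripts, a measure of blood left in the kidney, summed to 433 to 1490 FPKM in CaggCreERT2 controls and 44.5 to 669 FPKM in Tsc2 KO, to 128 to 493 and 20.4 to 42.7 FPKM with KspCre, and to 200 to 301 and 14.3 to 87.0 FPKM with vehicle. The part of podocytes, macrophages, mural cells, tubule cells, proliferating cells and blood in the results of the 9 genes was not tested.

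Across the 42 libraries, with each cohort centred on its mean, the 9 genes followed each other. Pearson's r of the 36 pairs ran from 0.392 (Plvap and Ehd3) to 0.953 with a median of 0.809, and 0 pairs were negative. Points share mice of a group and the make-up of the kidney, so r is a description. With the mean of the podocyte genes the members correlated at 0.832 (Ehd3), 0.749 (Kdr), 0.746 (Emcn), 0.744 (Tek), 0.650 (Flt1), 0.597 (Tie1), 0.548 (Pecam1), 0.392 (Cdh5) and 0.277 (Plvap). The mean of the 9 correlated at 0.700 with the podocyte genes, 0.586 with erythroid, 0.533 with mural cell, 0.411 with proximal tubule and -0.440 with macrophage genes. Plvap was closer to the erythroid genes (0.387) and Cdh5 to the mural cell genes (0.545) than to the podocyte genes. With the mean of the other 8 members they correlated at 0.742 (Ehd3) to 0.958 (Tek). Of 6767 other genes, those most like the mean of the 9 included Mmrn2 (0.914), Ecm1 (0.902), Adgrl4 (0.902), Exoc3l2 (0.899), Tmem204 (0.884), Eng (0.882), Gimap6 (0.873), Plpp3 (0.868) and Plpp1 (0.847), while the median gene was at -0.052. Mmrn2, Adgrl4 and Eng were on the endothelial list.

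On the mm10 build of the tables the genes lie at chr11:106654217-106750628 (Pecam1), chr8:104101625-104144511 (Cdh5), chr5:75932827-75978458 (Kdr), chr5:147561604-147726011 (Flt1), chr4:94739289-94874976 (Tek), chr4:118471191-118490061 (Tie1), chr3:137341067-137432185 (Emcn), chr8:71497765-71511752 (Plvap) and chr17:73804134-73832094 (Ehd3). Values are summed over the exons of each gene, so no value speaks to a single exon, transcript form or untranslated region. Exon lengths ran from 1987 bases for Plvap to 13504 bases for Flt1.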

How the data were processed

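Poly-A RNA of whole mouse kidney was sequenced from a library kit that does not keep strand. The authors deposited counts per gene, not normalized, and FPKM per gene, on mm10. Their notes name HISAT2 2.0.5, STAR 2.6.1d, featureCounts 1.5.0-p3 and DESeq2 1.20.0. Reads counted per library were 16047699 to 20865587 (CaggCreERT2), 14926050 to 20541625 (KspCre) and 15104557 to 22807605 (drug cohort). Columns of the 2 CaggCreERT2 tables, whose names differ, were joined by the constant ratio of FPKM to count.

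Counts were tested per cohort in R 4.3.3 with edgeR 4.0.16 (filterByExpr, TMM, quasi-likelihood test, Benjamini-Hochberg over all genes), all groups of a cohort in 1 fit. Calls needed an adjusted p of 0.05 or less and a mean of 5 FPKM or more in either group. Log2 CPM for correlations used a prior count of 2, and ratios a pseudocount of 0.01 FPKM. Alternatives were DESeq2 1.42.0, other filters and scalings, a replicate block, sex and each library left out. The test was also run on simulated counts, and the outcome is not given here. Members and lists were chosen with earlier results of these data known. Named are the 9 members, their ligands, up to 4 called genes per vessel list by lowest p, and the 10 most alike genes, 1 of which is not reported here. Replicates are separate mice. At least 268 reads lay behind each member value.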

Additional observations from a re-analysis of the deposited data

How the results depend on the processing

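Counts of the 9 genes called depended on the processing as follows, and the cause was not tested unless stated. For fits with only the groups compared, with the replicate block, without 1 library or without the libraries with adrenal transcripts, shares over all genes are not given. Counts from those fits therefore have no background beside them. For whole-body Tsc2 KO, with 1 lower, the count was 4 with no filter on low counts, 3 by DESeq2, 4 with only the groups compared, 0 under the names of the count table, and 1 to 2 without 1 library. For whole-body DKO against control, with 1 lower, it was 2 with no filter, 3 with only the groups compared, 0 under the names of the count table and 0 to 0 without 1 library. For KspCre Tsc2 KO, with 7 lower, it was 2 when 5 FPKM was asked of every library, which removes genes that fell by construction, and 0 to 8 without 1 library. For KspCre DKO against control, with 0, it was 2 by DESeq2 and 0 to 1 without 1 library. For vehicle Tsc2 KO, with 4, it was 0 at 5 FPKM in every library and 3 to 5 without 1 library. For vehicle DKO against Tsc2 KO, with 3 higher, it was 0 at 5 FPKM in every library, 0 with only the groups compared, 0 without the libraries with adrenal transcripts (chosen after seeing the data) and 0 to 5 without 1 library. For rapamycin in Tsc2 KO, with 0, it was 2 lower (Cdh5 and Plvap) with only the groups compared and 0 to 1 without 1 library. The difference between models had 0 called and 1 (Flt1) by DESeq2.

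The replicate block called 3 genes in whole-body Tsc2 KO, where the fit without it called 1, and changed no other count over the 9, though Angpt2 with KspCre, Unc5b with CaggCreERT2, Mmrn2 and Pdpn in vehicle DKO and Lrg1 with rapamycin lost their calls. Replicate numbers are not known to pair the mice, and the labels do not say. Same-numbered libraries correlated at -0.172 to 0.124, -0.296 to 0.246 and -0.357 to 0.352 in the 3 cohorts. Their medians were 0.00994, -0.0398 and -0.00358, beside 0.0097, -0.00158 and 0.0219 for other pairs. Low correlations cannot exclude shared litters or handling. In 219 alternative fits of the 16 called values 154 kept the call and direction, and none reversed it. Of 2211 fits of the 146 other values 127 changed sign. With 3 mice per group and at most 6856 reads for a gene, intervals of about 1 on the log2 scale remain, and differences below that size may not be detectable.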
